A study of Mus musculus with 24 samples.

Results

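Apoptosis regulators that decide between survival and death of newborn neurons were followed in RNA from the mouse dentate gyrus, a hippocampal region that goes on making neurons in adults. The members were the listed genes Bax, Bak1, Bcl2, Bcl2l1, Bcl2l11, Bbc3, Mcl1, Casp9 and Apaf1, and all 9 were found among the 23306 genes of the deposited table. All animals were female C57BL6 mice of the genotype Nes-CreERT2::RiboTag, that is, a Nestin-driven Cre recombinase that tamoxifen activates, with 1 tagged and 1 wild-type copy of Rpl22 (RPL22HA/WT). Running and sedentary mice alike received tamoxifen at 160 mg/kg on 5 consecutive days, at an age of 9 to 11 weeks. Running mice, housed singly, could use a free wheel, and the wheel of sedentary mice was glued in place, with a treatment time of 11, 18 or 27 days. Of the 24 libraries, 12 held RNA precipitated with the tagged ribosomes of recombined cells and their descendants (IP), and 12 held RNA of the tissue without precipitation (input). Each combination of fraction, activity and day had 2 libraries. Their letters were a and b for day 11, c and d for day 18, e and f for day 27. Recombination starts in Nestin-expressing stem cells, so the precipitate can hold RNA of any cell type that descends from them, and nothing in the labels says how many mice went into a library.

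Most neurons born in the adult dentate gyrus die within weeks of their birth, and death by the mitochondrial pathway of apoptosis is a main route. In that pathway BAX and BAK open pores in the outer mitochondrial membrane, BCL2, BCL-XL (from Bcl2l1) and MCL1 hold them in check, and BH3-only proteins such as PUMA (from Bbc3) and BIM (from Bcl2l11) release them by binding the survival proteins. Cytochrome c that leaves the mitochondria joins APAF1 into the apoptosome, which activates caspase 9 and through it the executioner caspases. In mice that lack Bax, adult-born granule neurons that would have died accumulate.

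Values are transcripts per 1000000 transcripts (TPM), which are scaled by transcript length, so that levels of different genes can be set side by side. TPM keep no read depth, so the depth of each library is unknown and the precision rests on the spread between libraries. The cell types were described with marker lists, which were chosen with earlier results of these data known. In IP against input, all 8 immature neuron markers, 6 of 6 progenitor markers, 5 of 5 markers of dividing cells and 7 of 7 markers of radial glia-like stem cells were higher. All 8 microglia markers and 7 of 7 interneuron markers were lower, and no list had a marker at 0 in all libraries of a fraction. The labels call the precipitate immature neurons, and the data show stem and dividing cell markers in it as well: the summed level of the 7 stem cell markers was 484 to 875 TPM in IP libraries against 219 to 336 TPM in input libraries. Of 8 astrocyte markers, 4 were higher and 2 lower in the IP. In bulk RNA, fewer cells of a type and less RNA per cell cannot be told apart. Among the IP libraries, the running library a of day 11 stood apart, with 17.4% of its TPM in Rpph1, the RNA of ribonuclease P, against 4.58% to 9.16% in the others. Among the input libraries, those of day 18 stood apart, with a mean of 4.67 to 9.78 TPM over 1102 olfactory receptor genes, which are not expected in this tissue, against 0.518 to 3.66 TPM in the other input libraries and 0.565 to 2.05 TPM in the IP. Ttr, a marker of the choroid plexus, a tissue that lies next to the dentate gyrus, stood at 202 TPM in the running input library a of day 11 and at 539 TPM in the running input library d of day 18, against at most 28.1 TPM in the other input libraries. Their IP counterparts had 34.9 and 106 TPM, the other IP libraries at most 5.09 TPM.

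The survival genes lie at Bcl2, chromosome 1, 106538178 to 106714274 on the minus strand, Bcl2l1, chromosome 2, 152780668 to 152831728 on the minus strand, and Mcl1, chromosome 3, 95658788 to 95663176 on the plus strand (GRCm38, the mm10 assembly, GENCODE M21). The BH3-only genes are Bcl2l11 on chromosome 2, 128126038 to 128162547, and Bbc3 on chromosome 7, 16308393 to 16318205, both on the plus strand. The pore-forming genes are Bax on chromosome 7, 45461697 to 45466898, and Bak1 on chromosome 17, 27019810 to 27029009, both on the minus strand. The apoptosome genes are Apaf1 on chromosome 10, 90989311 to 91082770 on the minus strand, and Casp9 on chromosome 4, 141793612 to 141815976 on the plus strand. Gene models overlap Bax (Gm45808, same strand), Bak1 (Ggnbp1), Bcl2 (D630008O14Rik, Mir3473f and Gm37053), Casp9 (Cela2a and Ctrc) and Apaf1 (Gm25390). Whether the counting used strand is not given in the sources used here. Reads of these genes and of such neighbours could therefore not be told apart with certainty. Values are sums over transcripts of a gene, so that the long and short products of Bcl2l1 and Mcl1, which act in opposite directions, are not separated.

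The start regions of Bcl2, Bcl2l11 and Bbc3 are shown because they hold the searched letters and because the ratios described further on set the BH3-only genes Bbc3 and Bcl2l11 against Bcl2. RefSeq (GRCm38.p6) gave windows of 300 bases, from 250 before to 50 after a transcript start, for all 9 members, 14 windows in all. Capitals mark the letters searched, on both strands: GTAAACA or TGTTTAC, the core bound by FOXO factors, and TGACGT or ACGTCA, part of the cAMP response element. The FOXO letters stood in 2 of the 14 windows, those of Bcl2l11 and Bbc3, and in 3.65% of all 32851 windows of the table. The cAMP element letters stood in 1 of the 14, that of Bcl2, and in 7.51% of all windows. Both motifs were chosen after the windows had been seen, and a match is a description of letters, not of binding. The stretches of 120 bases, 5′ to 3′ on the strand of the gene, are chr1:106714338-106714457 (minus strand) for Bcl2, chr2:128125788-128125907 (plus strand) for Bcl2l11 and chr7:16310034-16310153 (plus strand) for Bbc3. The marked letters begin 107 bases before the transcript start in Bcl2, 227 before it in Bcl2l11 and 167 before it in Bbc3.
Bcl2: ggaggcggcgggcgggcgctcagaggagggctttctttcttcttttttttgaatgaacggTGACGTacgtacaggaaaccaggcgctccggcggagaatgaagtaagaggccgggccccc
Bcl2l11: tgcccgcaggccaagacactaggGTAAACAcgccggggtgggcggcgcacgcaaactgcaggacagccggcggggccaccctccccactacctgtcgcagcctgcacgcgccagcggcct
Bbc3: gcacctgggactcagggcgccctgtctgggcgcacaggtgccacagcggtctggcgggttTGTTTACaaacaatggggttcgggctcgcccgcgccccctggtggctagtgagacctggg

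In both fractions the survival genes Bcl2l1 and Mcl1 were the most abundant members and the BH3-only gene Bcl2l11 the least. In the IP, Bcl2l1 stood at 75.3 ± 10.1 TPM and Mcl1 at 68.3 ± 4.98 TPM (mean ± SD, n = 12 libraries here and below), and their ranges overlapped. Bax followed at 32.4 ± 5.99 TPM, below Mcl1 and above Bcl2 in each of the 12 libraries. Bcl2 stood at 14.8 ± 2.92 TPM and was above Apaf1 in 11 of 12 libraries. Apaf1 at 11.8 ± 1.57 TPM, Bak1 at 11.6 ± 2.36 TPM, Casp9 at 11.6 ± 2.06 TPM and Bbc3 at 11.1 ± 3.83 TPM did not differ beyond their spread. Bcl2l11 closed the order at 4.32 ± 0.809 TPM, below Bbc3 in all 12 libraries.

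The input kept Bcl2l1 at the top, at 83.5 ± 9.33 TPM, and there its range did not overlap that of Mcl1, at 50.2 ± 6.20 TPM. Bax stood at 25.2 ± 6.61 TPM, again clear of its neighbours. Casp9 at 10.05 ± 2.71 TPM, Apaf1 at 9.42 ± 1.30 TPM, Bcl2 at 8.82 ± 2.29 TPM and Bak1 at 7.39 ± 1.71 TPM had overlapping ranges, followed by Bbc3 at 5.39 ± 1.22 TPM and Bcl2l11 at 3.24 ± 0.615 TPM. Among the genes tested in each fraction, Bcl2l1 was above 84.2% in the IP and 89.1% in the input, whereas Bcl2l11 was above 23.4% and 29.7%. The spread over 12 IP libraries was smallest for Mcl1 (SD 0.11 of log2(TPM + 1)) and largest for Bbc3 (SD 0.47), beside a median of 0.29 over all genes.

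**Figure D1:**
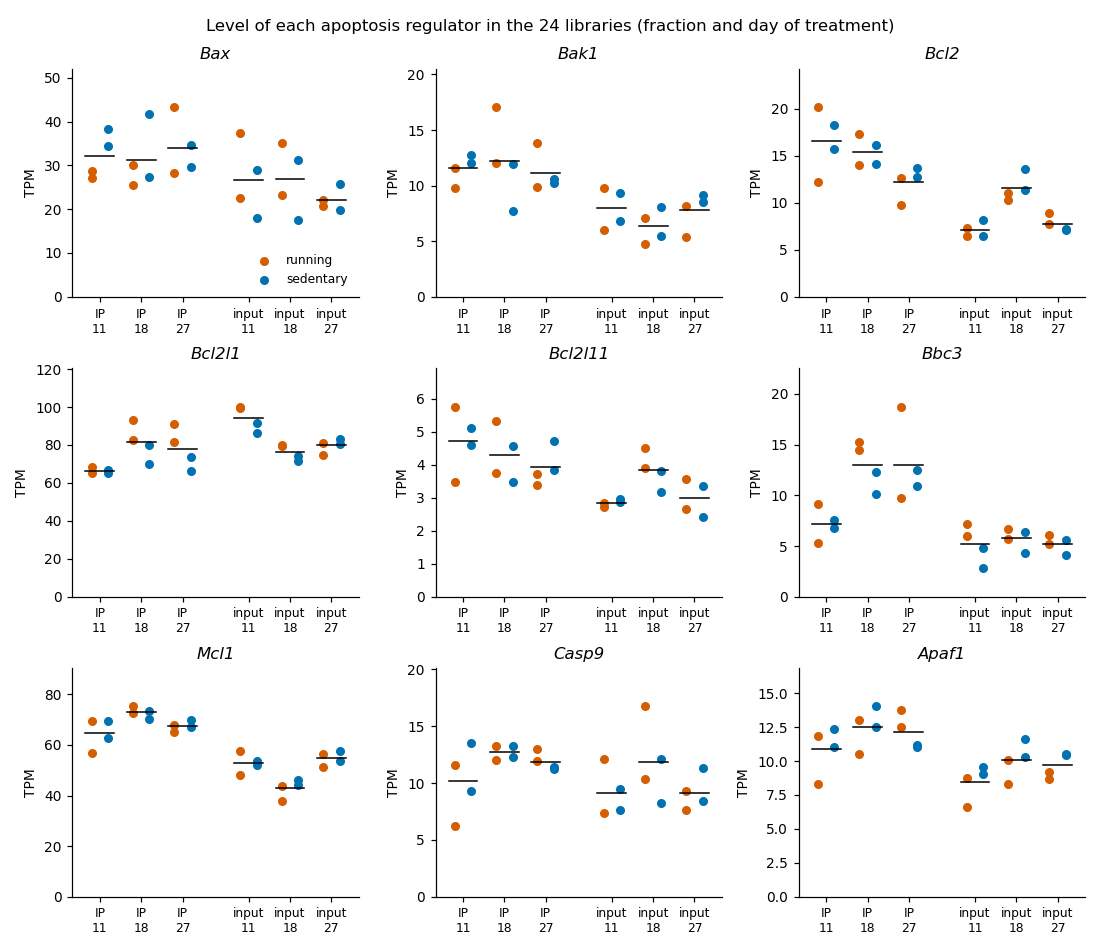
TPM of each of the 9 genes (y axes, linear, from 0) in the 24 libraries, by fraction and day (x axis). Points are libraries, coloured by activity, and black lines are means of 4 libraries. Bbc3 in the IP sits between 5.28 and 9.10 TPM at day 11 and between 9.71 and 18.7 TPM at day 27, and Bcl2l1 in the input is highest at day 11.

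Most members had a higher level in the precipitate than in the input. Of the 9 genes, 7 were higher and 1 was lower in IP than in input as the mean of days and activities, beside 41.4% of all 19507 tested genes higher and 28.5% lower, by limma with Benjamini-Hochberg adjustment and an adjusted p under 0.05. The median difference of the members was 0.37 on the log2(TPM + 1) scale, and that of all genes 0.12. The ratio of IP to input combines how much of the RNA comes from recombined cells with how much of it sits on ribosomes, and these cannot be told apart here. The counts of cell type markers given above move with this comparison, and their part in it was not tested.

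The survival genes differed in direction. Bcl2, the founding survival gene of the family, was between 9.75 and 20.3 TPM in the IP (median 14.1) and between 6.43 and 13.6 TPM in the input (median 7.96). Within each of the 3 days, all IP libraries lay above all input libraries. Its difference was 0.69 ± 0.09 (log2, SE; adjusted p = 1.3e-06 by limma). Mcl1, which encodes a short-lived survival protein, was between 57.0 and 75.2 TPM in the IP (median 69.4) and between 37.9 and 57.7 TPM in the input (median 51.8), a difference of 0.44 ± 0.06 (limma adjusted p = 1.2e-06). The ranges of Mcl1 overlapped by little, through the running IP library a of day 11, which had the lowest value of the IP. Bcl2l1 was the member that was lower in the IP, by -0.15 ± 0.05 (limma adjusted p = 0.018), with 65.1 to 93.0 TPM (median 71.8) in the IP and 71.6 to 100.3 TPM (median 80.6) in the input, and 6 of the 12 IP libraries lay within the input range. With IP and input of the same activity and letter as a block this call ended (adjusted p = 0.059).

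Of the BH3-only genes, Bbc3 had the largest difference of all members. It was between 5.28 and 18.7 TPM in the IP (median 10.5) and between 2.83 and 7.16 TPM in the input (median 5.62), and the ranges overlapped through 2 IP libraries of day 11. The difference was 0.87 ± 0.12 (limma adjusted p = 2.5e-06). Bcl2l11 was between 3.39 and 5.77 TPM in the IP and between 2.43 and 4.52 TPM in the input, a difference of 0.33 ± 0.11 (limma adjusted p = 0.013), with overlapping ranges.

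The pore formers and Apaf1 were also higher in the IP. Bak1 was between 7.76 and 17.1 TPM in the IP and between 4.75 and 9.83 TPM in the input, a difference of 0.60 ± 0.12 (limma adjusted p = 0.00013), and the sedentary library c of day 18 gave the lowest IP value. For Bax the ranges were 25.6 to 43.4 TPM and 17.6 to 37.5 TPM, with a difference of 0.37 ± 0.12 (limma adjusted p = 0.011) and broad overlap. Apaf1, the scaffold of the apoptosome, differed by 0.30 ± 0.08 (limma adjusted p = 0.0029), and Casp9, the caspase it activates, by 0.20 ± 0.12 (limma adjusted p = 0.14, 95% interval -0.05 to 0.45), which did not pass.

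The scale of the comparison matters for the smaller differences. With median-of-ratios scaling of the libraries the median of all genes moved by -0.25, to -0.13, and 5 members passed: Bbc3, Bcl2, Bak1 and Mcl1 higher and Bcl2l1 lower. The shares of all genes that passed on that scale are not given here, so the counts on it are no result about the members. On that scale Bcl2l1 differed by -0.43 (limma adjusted p = 4.9e-06), and Apaf1 differed by 0.04 (limma adjusted p = 0.59), Bax by 0.10 (0.51) and Bcl2l11 by 0.10 (0.37), and Casp9 turned to -0.06. At day 11 Bcl2 and Bcl2l1 passed on that scale. At day 18, where the median of all genes moved by -0.31, Bbc3, Bak1 and Mcl1 passed as higher and Bcl2l1 as lower (-0.24, limma adjusted p = 0.047), and Bcl2 lost its call (0.07, 0.65). At day 27 Bbc3 (0.86, 0.0023) and, lower, Bcl2l1 (-0.34, 0.013) passed, and the calls of Bcl2 (0.32, 0.065), Bax (0.30, 0.28) and Mcl1 were lost.

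The members did not share a course over the days when IP was set against input. At day 11, Bcl2 (1.10 ± 0.16, adjusted p = 1.3e-05), Bcl2l11 (0.56 ± 0.19, 0.023) and Mcl1 (0.28 ± 0.10, 0.028) were higher and Bcl2l1 was lower (-0.50 ± 0.09, 0.00024), beside 29.2% of all genes higher and 12.1% lower by the same limma test. Bcl2 then stood at 15.8, 12.2, 18.3 and 20.3 TPM in the IP (sedentary a, running a, sedentary b, running b) and at 8.18, 6.43, 6.44 and 7.38 TPM in the input. Bcl2l1 stood at 66.9, 68.7, 65.2 and 65.1 TPM in the IP and at 86.3, 100.3, 91.8 and 99.3 TPM in the input, in the same order. The fractions did not overlap for either gene. The call of Bcl2l11 ended without any 1 of 4 libraries (IP sedentary a, IP running b, input sedentary b, input running b; adjusted p 0.056 to 0.12). That of Mcl1 ended without any 1 of 5 libraries (IP sedentary b, IP running b, input sedentary a, input running a, input sedentary b; adjusted p 0.053 to 0.12).

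At day 18, Bbc3 (1.05 ± 0.21, adjusted p = 0.00021), Bak1 (0.83 ± 0.20, 0.0014), Mcl1 (0.75 ± 0.10, 3.4e-06) and Bcl2 (0.39 ± 0.16, 0.038) were higher in the IP by limma, and no member was lower, beside 33% of all genes higher and 31% lower. Bbc3 stood at 12.3, 14.5, 10.1 and 15.2 TPM in the IP (sedentary c, running c, sedentary d, running d) and at 6.34, 6.70, 4.28 and 5.68 TPM in the input. Mcl1 stood at 70.4, 75.2, 73.3 and 72.5 TPM in the IP and at 44.4, 43.8, 46.3 and 37.9 TPM in the input, the widest gap of Mcl1 on any day. The call of Bcl2 ended without any 1 of 5 libraries (IP sedentary c, IP running c, input running c, input sedentary d, input running d; adjusted p 0.055 to 0.14). These input libraries are those with the raised olfactory receptor level, and its part in the values of day 18 was not tested.

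At day 27, Bbc3 (1.13 ± 0.21, adjusted p = 0.00021), Bcl2 (0.59 ± 0.16, 0.0043), Bax (0.59 ± 0.21, 0.028) and Mcl1 (0.30 ± 0.10, 0.019) were higher in the IP by limma, and none was lower, beside 34.6% of all genes higher and 14.3% lower. Bax stood at 34.5, 43.4, 29.5 and 28.3 TPM in the IP (sedentary e, running e, sedentary f, running f) and at 25.8, 20.6, 19.7 and 22.1 TPM in the input, with no overlap. Its call ended without any 1 of 5 libraries (IP sedentary e, IP running e, input running e, input sedentary f, input running f; adjusted p 0.053 to 0.13). The call of Mcl1 ended without any 1 of 4 (IP sedentary f, IP running f, input sedentary e, input running f; adjusted p 0.054 to 0.074).

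Whether the ratio of IP to input differed between the days was tested itself, and 3 of the 9 members passed, beside 37.4% of all genes (limma F test, adjusted p under 0.05): Bcl2l1 (adjusted p = 0.0058), Mcl1 (0.019) and Bcl2 (0.037). The share is near that of all genes and is no result about the members. With IP and input of the same activity and letter as a block, 1 member passed, Bcl2l1 (0.034), and Mcl1 (0.052) and Bcl2 (0.065) did not. From day 11 to day 18 the ratio moved by 0.59 ± 0.13 for Bcl2l1 (limma adjusted p = 0.0028), by 0.47 ± 0.14 for Mcl1 (0.015) and by -0.72 ± 0.22 for Bcl2 (0.017). From day 11 to day 27, which leaves out the input libraries of day 18, it moved by 0.46 ± 0.13 (0.083), 0.01 ± 0.14 (0.98) and -0.51 ± 0.22 (0.27), and none of these passed. Bcl2l1 passed the F test in all 24 fits without 1 library. Mcl1 did not pass without running IP library c, sedentary input library c or running input library d, all of day 18 (adjusted p 0.051 to 0.06). Bcl2 did not pass in 11 of the 24 (adjusted p 0.051 to 0.099), which were those without an IP library (sedentary or running b of day 11, sedentary or running d of day 18, sedentary f of day 27) or an input library (running a or sedentary b of day 11, sedentary c, running c or running d of day 18, sedentary f of day 27).

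**Figure D2:**
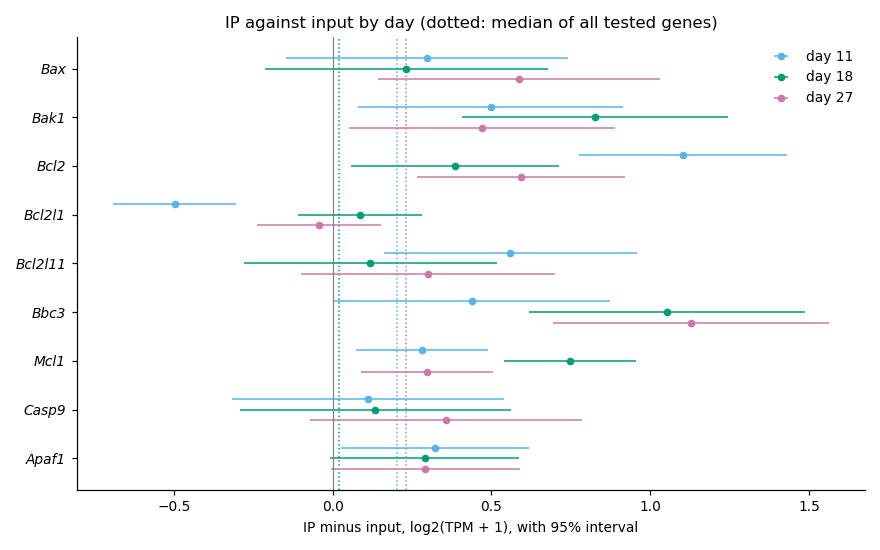
Difference of IP and input for each gene (x axis, log2(TPM + 1), points with 95% intervals) at day 11, 18 and 27, each from 4 against 4 libraries. Dotted lines mark the medians of all tested genes, at 0.20, 0.02 and 0.23. Bcl2l1 lies at -0.50 at day 11 and near 0 at the later days, and Bbc3 lies at 0.44 at day 11 and above 1 at the later days.

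On the scale of the deposited TPM, Bbc3 was the 1 member that passed between days of treatment within the precipitate. It stood at 6.82, 5.28, 7.61 and 9.10 TPM at day 11 (sedentary a, running a, sedentary b, running b), at 12.3, 14.5, 10.1 and 15.2 TPM at day 18, and at 12.5, 18.7, 10.9 and 9.71 TPM at day 27 (sedentary e, running e, sedentary f, running f). Every library of day 18 and day 27 lay above every library of day 11. The rise was 0.78 ± 0.21 from day 11 to 18 (limma adjusted p = 0.041, 1 of 9 members beside 5.66% of 17282 genes) and 0.75 ± 0.21 from day 11 to 27 (limma adjusted p = 0.026, 1 of 9 members beside 15.3%). No member passed between days 18 and 27, beside 0.122% of genes, with 0 members at an unadjusted p under 0.05 by limma. Without the running IP library a of day 11, which held the excess of Rpph1 and the lowest Bbc3 value, the rise was 0.61 to day 18 (adjusted p = 0.15) and 0.58 to day 27 (0.11), so both calls ended. With median-of-ratios scaling the rise to day 18 was 0.68 (0.061) and did not pass. The call for day 18 ended in 9 of the 12 fits that left out 1 IP library, those without running b of day 11, running e or running f of day 27 being the exceptions (adjusted p 0.058 to 0.15). The call for day 27 ended in 5 of 12, without sedentary a, running a, sedentary e, running e or sedentary f (adjusted p 0.061 to 0.11), and the direction held in all 12 for both. The IP to input ratio of Bbc3 did not pass the F test for a difference between days (limma adjusted p = 0.12). Beside the shares of all genes, the counts of 1 of 9 are no result about the members.

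Bcl2 moved the other way in the IP without passing the test. Its values were 15.8, 12.2, 18.3 and 20.3 TPM at day 11, 16.2, 17.4, 14.2 and 14.1 TPM at day 18, and 13.8, 12.7, 12.8 and 9.75 TPM at day 27, in the same library order. The difference of day 27 from day 11 was -0.40 ± 0.17 (limma adjusted p = 0.13, unadjusted p = 0.034). With median-of-ratios scaling, which moved the median of all genes from 0.15 to 0.05 (shift -0.11), it was -0.51 (0.027) and passed, and Bbc3 still passed at 0.64 (0.041). Bcl2l1 in the IP was 0.28 ± 0.10 higher at day 18 than at day 11 (adjusted p = 0.11) and 0.22 ± 0.10 higher at day 27 (0.15). The other members had day 27 minus day 11 values between -0.21 (Bcl2l11) and 0.26 (Casp9), none past the threshold.

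A ratio of genes within a library does not depend on how the library was scaled. The ratio of Bbc3 to Bcl2, a BH3-only gene over a survival gene that its protein binds, was 0.433, 0.433, 0.417 and 0.449 in the 4 IP libraries of day 11. It was 0.759, 0.835, 0.712 and 1.08 at day 18, and 0.907, 1.48, 0.856 and 0.996 at day 27. The 4 libraries of day 11 lay close together, the library with excess Rpph1 included, and below all later ones. In the input the ratio was 0.439 to 0.970 at day 11, 0.375 to 0.652 at day 18 and 0.575 to 0.785 at day 27, and the days overlapped. The ratio of the other BH3-only gene to Bcl2 stayed in a narrow band: Bcl2l11 over Bcl2 was 0.252 to 0.324 at day 11, 0.247 to 0.307 at day 18 and 0.294 to 0.348 at day 27 in the IP. Bax over Bcl2 was 1.34 to 2.43, 1.73 to 2.59 and 2.31 to 3.42 over the same days, and Casp9 over Apaf1 was 0.749 to 1.26 in the 12 IP libraries. A ratio over Bcl2 also moves with Bcl2 itself, and those of the survival genes rose as well. Mcl1 over Bcl2 was 3.44 to 4.67, 4.34 to 5.18 and 4.88 to 6.96 over these days. Bcl2l1 over Bcl2 was 3.21 to 5.63, 4.33 to 5.87 and 5.19 to 8.34. Bbc3 over Bcl2l11, without Bcl2, was 1.33 to 1.65, 2.67 to 4.05 and 2.65 to 5.02. These pairs were chosen with the values known, and the ratios carry no test.

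Markers of maturation moved with the days in the IP. Between day 11 and day 27, 4 of 5 dividing cell markers and 5 of 6 progenitor markers fell and 5 of 8 mature granule neuron markers rose. The summed level of the dividing cell markers was 119 to 179 TPM at day 11 and 70.5 to 78.4 TPM at day 27. That of the progenitor markers was 475 to 679 TPM and 303 to 447 TPM, that of the immature neuron markers 2929 to 4153 TPM and 2149 to 3479 TPM, and that of the mature granule neuron markers 1534 to 1624 TPM and 1750 to 2318 TPM. The part of this shift in the rise of Bbc3 was not tested. The labels give 1 treatment time, so that time since tamoxifen and time in the cage with the wheel cannot be told apart.

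**Figure D3:**
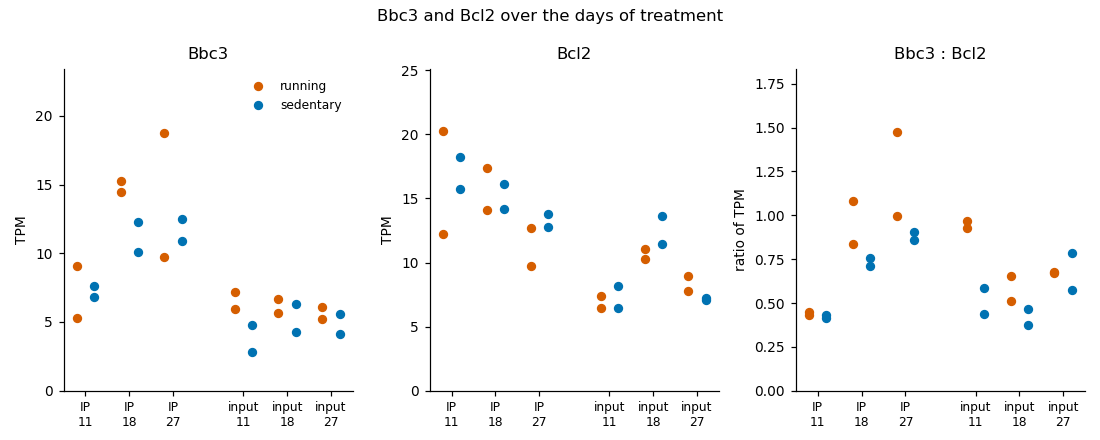
TPM of Bbc3 and of Bcl2 and the ratio of both (y axes, linear, from 0) in each library, by fraction and day (x axis), coloured by activity. In the IP the ratio sits between 0.417 and 0.449 at day 11 and between 0.856 and 1.48 at day 27, and in the input the days overlap.

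In the input, members changed in the contrasts with day 18 and in no other. Between day 11 and day 18, Bcl2 rose by 0.63 ± 0.14 (limma adjusted p = 0.0037), and Bcl2l1 (-0.30 ± 0.10, 0.024) and Mcl1 (-0.29 ± 0.11, 0.044) fell, 3 of 9 members beside 49.2% of 20462 genes. Between day 18 and day 27, Bcl2 fell by 0.52 ± 0.14, from 10.3 to 13.6 TPM at day 18 to 7.08 to 8.96 TPM at day 27 (limma adjusted p = 0.019), and Mcl1 rose by 0.34 ± 0.11 (0.031), 2 of 9 members beside 37.1%. Between day 11 and day 27, 0 of 9 members passed by limma, beside 0% of genes, and 1 member, Bcl2l1, had an unadjusted p under 0.05 (-0.24 ± 0.10, 0.035). The rise of Bcl2 to day 18 passed in all 12 fits without 1 library. The fall of Bcl2l1 to day 18 did not pass without sedentary b, sedentary c, running c or running d (adjusted p 0.059 to 0.072). That of Mcl1 passed in the fits without running a of day 11 and without running c of day 18 and in none of the other 10 (adjusted p 0.062 to 0.14). The fall of Bcl2 to day 27 did not pass without sedentary c, sedentary e, sedentary f or running f (0.054 to 0.080). The rise of Mcl1 to day 27 did not pass without any 1 of 7 libraries, sedentary c, running c, running d and the 4 of day 27 (0.051 to 0.11). Each of these calls rests on the input libraries of day 18, whose olfactory receptor level was raised, and its part in them was not tested.

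Voluntary running was the study's main question, and no member passed the test for it. In the IP, 0 of 9 members differed between running and sedentary mice as the mean of days (limma, 6 against 6 libraries), beside 0.00579% of genes, and 1 member had an unadjusted p under 0.05. That member was Bcl2l1, at 68.7, 65.1, 93.0, 82.6, 91.2 and 81.4 TPM in running mice (a to f) and at 66.9, 65.2, 70.0, 80.0, 73.6 and 66.2 TPM in sedentary mice. The groups overlapped at day 11, and at days 18 and 27 both running libraries lay above both sedentary ones. The difference was 0.18 ± 0.08 (limma unadjusted p = 0.045, adjusted p = 0.34, 95% interval 0.0045 to 0.36). Over 20 alternative fits it stayed between 0.15 and 0.25, with a lowest adjusted p of 0.19.

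The intervals for the other members in the IP bound what could have been missed. Mcl1 had the narrowest interval, with -0.02 ± 0.08 reaching from -0.20 to 0.15. Bcl2 differed by -0.10 ± 0.14 (-0.39 to 0.20), Bax by -0.17 ± 0.13 (-0.44 to 0.10), Bak1 by 0.16 ± 0.15 (-0.16 to 0.47) and Bbc3 by 0.18 ± 0.17 (-0.18 to 0.54). Apaf1, Casp9 and Bcl2l11 lay at -0.05 ± 0.13 (-0.33 to 0.23), -0.08 ± 0.15 (-0.41 to 0.25) and -0.05 ± 0.18 (-0.43 to 0.32). In the lists of stem cells and immature neurons 0 markers passed between running and sedentary mice, and over all days the ranges of their sums overlapped. Within each day, however, the stem cell sum was lower in both running libraries than in both sedentary ones. The immature neuron sum was higher in both running libraries at day 18 and overlapped at days 11 and 27. All 8 astrocyte markers had a difference below 0, with a median of -0.39 beside -0.07 for all genes, and 0 passed. The summed immature neuron markers were 2217 to 5644 TPM in running and 2149 to 3777 TPM in sedentary mice, and the summed stem cell markers 484 to 805 and 656 to 875 TPM. The part of such differences in cell type markers in the values of the members was not tested. The signs for Apaf1, Bak1, Bcl2, Bcl2l11, Casp9 and Mcl1 turned under at least 1 alternative, so no direction is given for them. Within single days 0 members passed at day 11, 18 or 27 by limma (2 against 2 libraries), beside 0%, 0% and 0.0289% of genes, and 0 had an unadjusted p under 0.05. The largest of these was Bak1 at day 18, with 12.1 and 17.1 TPM in running and 7.76 and 11.9 TPM in sedentary mice (0.53 ± 0.26, unadjusted p = 0.056, adjusted p = 0.56). The running effect did not pass the F test for a difference between days for any member in the IP (0 of 9, lowest adjusted p = 0.93), beside 0.00579% of genes.

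In the input, 0 of 9 members differed between running and sedentary mice by limma, beside 0% of genes, and 0 had an unadjusted p under 0.05. Bbc3 came nearest, with 5.98, 7.16, 6.70, 5.68, 6.07 and 5.19 TPM in running mice (a to f) and 4.78, 2.83, 6.34, 4.28, 5.56 and 4.16 TPM in sedentary mice. At day 11 both running libraries lay above both sedentary ones, and at the later days the groups overlapped. The difference was 0.36 ± 0.16 (unadjusted p = 0.052, adjusted p = 0.95, 95% interval -0.0037 to 0.72). Apaf1 stood at 8.75, 6.58, 8.32, 10.1, 8.70 and 9.16 TPM in running and at 9.03, 9.57, 11.6, 10.3, 10.5 and 10.5 TPM in sedentary mice, and on each day both running libraries lay below both sedentary ones. Its difference was -0.23 ± 0.11 (unadjusted p = 0.065, adjusted p = 0.95), which did not pass. The 4 choroid plexus markers summed to 18.8 to 570 TPM in running and 16.7 to 26.5 TPM in sedentary input libraries. Without the running input library a of day 11, Bbc3 differed by 0.39 (adjusted p = 0.63) and Apaf1 by -0.29 (0.58), and without running input library d of day 18 by 0.39 (0.82) and -0.28 (0.81). Within days, 0 members passed at day 11, 18 or 27, beside 0%, 0.00977% and 0% of genes, and Bbc3 at day 11 had an unadjusted p of 0.035. The F test for a difference between days passed for 0 members, beside 0%. The running effect in the IP minus that in the input passed for 0 of 9 members, beside 0% of genes, with 0 members at an unadjusted p under 0.05 and values between -0.35 (Bax) and 0.35 (Bak1).

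**Figure D4:**
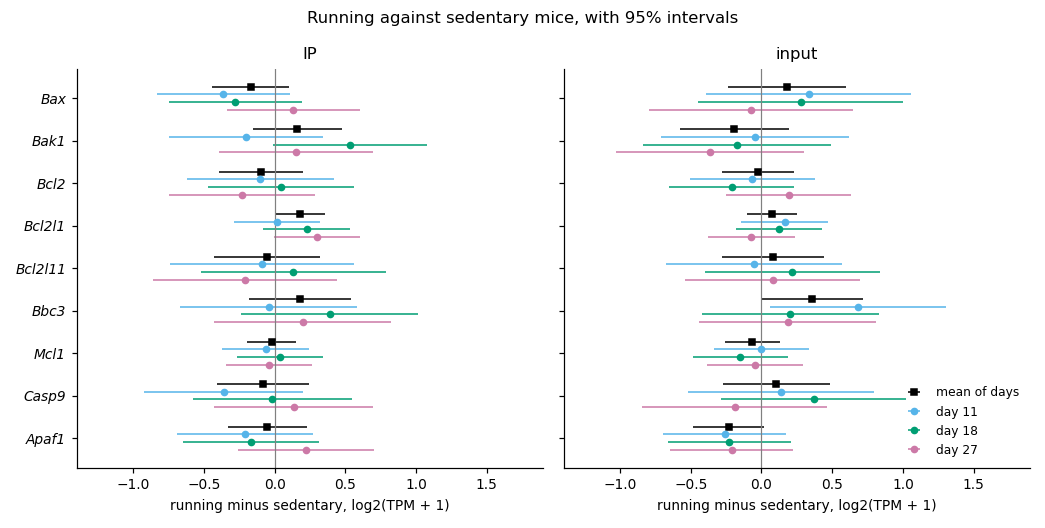
Difference of running and sedentary mice (x axes, log2(TPM + 1), with 95% intervals) for each gene in IP and input. Black squares are means of days, 6 against 6 libraries, and coloured points are single days, 2 against 2. All intervals for single days in the IP reach 0, and that of Bcl2l1 for the mean of days, at 0.18, ends close to it.

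Other genes of the pathway, taken from 6 lists of which 85 of 86 genes had an entry, did not all follow the members. These lists were chosen with earlier results of these data known. Of 16 other BCL2 family genes, 2 were higher and 9 lower in IP than in input, with a median of -0.52 beside 0.12 for all genes (limma, adjusted p under 0.05 here and below, shares of all genes as given above). Bnip3, a mitochondrial BH3-like gene induced by low oxygen, was at 131 ± 19.8 TPM in the input and, lower, at 58.9 ± 7.82 TPM in the IP (-1.14 ± 0.08, adjusted p = 1.8e-10). Its relative Bnip3l differed by -0.49 ± 0.08 (1.9e-05), Bcl2l2, a neuronal survival gene, by -0.64 ± 0.08 (5.9e-07), and Bcl2a1a, a survival gene of blood cells, by -0.93 ± 0.15 (2.4e-05). Bcl2a1a was near the floor, at 0 to 0.87 TPM in the IP, and the fractions overlapped at day 11 and at day 27. The input libraries of day 18, with the raised olfactory receptor level, held 1.94 to 6.83 TPM. The low genes Bcl2a1b, Bcl2a1d, Bcl2l14 and Pmaip1 also had their highest input value at day 18. The part of that background in the lower values of this list was not tested. Of 9 mitochondrial outer membrane and permeability genes, 1 was higher and 6 lower, led by the channel gene Vdac2 (-0.71 ± 0.07, adjusted p = 6.0e-08), the carrier gene Slc25a4 (-0.49 ± 0.07, 5.1e-06), Bcap31 (-0.60 ± 0.09, 5.4e-06) and Vdac1 (-0.56 ± 0.09, 2.2e-05).

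Downstream of the mitochondria the balance lay the other way. Of 19 tested genes for caspases, cytochrome c and inhibitors, 13 were higher and 4 lower in the IP, with a median of 0.57. Cycs, the gene of somatic cytochrome c, averaged 54.7 ± 7.63 TPM in IP libraries against 122 ± 20.0 TPM in input libraries (-1.13 ± 0.08, limma adjusted p = 5.3e-10). Birc5, the gene of survivin, which serves in cell division as well as in caspase inhibition, was higher by 1.17 ± 0.10 (2.9e-09). Birc6, a large inhibitor of apoptosis, ranged from 515 to 1613 TPM in IP libraries and from 46.1 to 70.8 TPM in input libraries (3.80 ± 0.12, 6.1e-15), the largest difference in the 6 lists. Gene-level TPM cannot show whether this was the transcript of Birc6 itself or another RNA made within the gene.

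The remaining lists were split. Of 15 tested genes of p53 and its targets, 5 were higher and 5 lower. Trp53 itself, at 46.8 ± 9.36 TPM in IP libraries against 15.0 ± 2.79 TPM in input libraries, was higher (1.58 ± 0.08, limma adjusted p = 5.5e-12), as were Trp53inp1 (0.86 ± 0.08, 2.9e-08) and the p53 inhibitor Mdm4 (0.78 ± 0.08, 8.7e-08), while Ccng1 was lower (-0.90 ± 0.08, 2.9e-09). Of 12 death receptor and adaptor genes, 5 were higher, led by the kinase gene Ripk1 (0.95 ± 0.09, 2.4e-08), Traf2 (0.83 ± 0.12, 6.2e-06) and Fadd (0.73 ± 0.14, 0.00011), and 4 were lower, among them the receptor gene Tnfrsf21 (-0.42 ± 0.09, 0.00032). Of 12 genes upstream of BH3-only genes, 5 were higher, with Myb at 1.00 ± 0.13 (1.7e-06) and Foxo3 at 0.49 ± 0.07 (3.7e-06), and 5 lower, with the kinase genes Mapk10 (-0.48 ± 0.06, 1.7e-06) and Mapk9 (-0.48 ± 0.07, 6.6e-06).

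**Figure D5:**
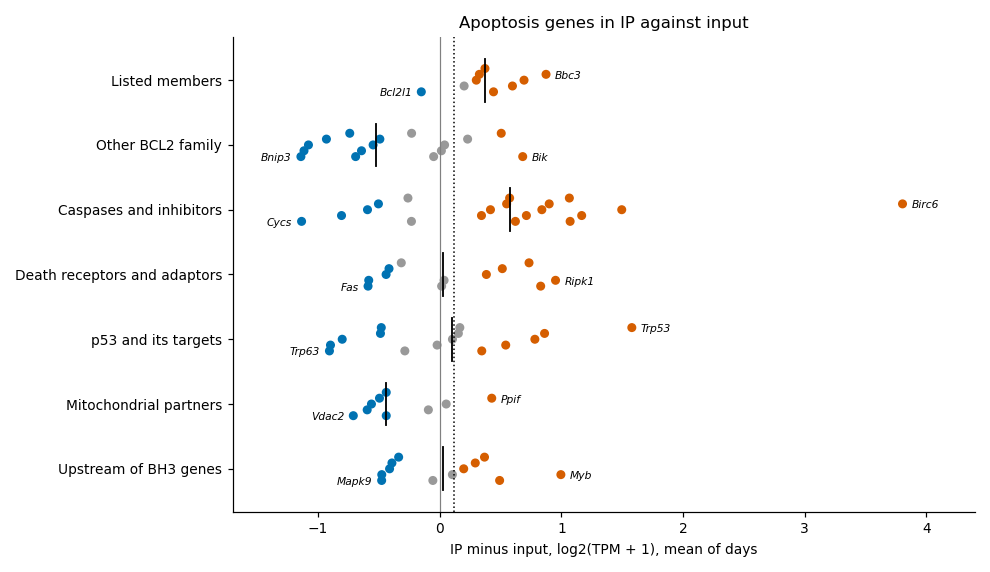
Difference of IP and input (x axis, log2(TPM + 1), mean of days) for each tested gene of the members and of the 6 further lists (y axis). Orange and blue points passed the limma test (higher and lower), grey points did not, short black lines are list medians and the dotted line is the median of all genes, at 0.12. The members have a median of 0.37, the other BCL2 family genes of -0.52.

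Few genes of these lists changed with the days in the IP, where 15.3% of all genes passed between day 11 and day 27. The counts below lie near or below that share and are no result about a list. Between day 11 and day 27, Hrk, another BH3-only gene, rose by 0.73 ± 0.18 (limma adjusted p = 0.012), from 12.6 ± 3.36 TPM to 21.1 ± 0.680 TPM (SD, n = 4), the 1 change among 13 tested genes of the other BCL2 family. Birc5 fell by 0.59 ± 0.16 (0.020), from 19.6 ± 3.59 TPM to 12.5 ± 0.593 TPM, along with the dividing cell markers given above. The transcription factor genes Jun (0.50 ± 0.10, 0.0037) and Foxo3 (0.39 ± 0.10, 0.018) rose, 2 of the 12 upstream genes. Of the death receptor genes Tnfrsf10b (0.80 ± 0.24, 0.042) and Tnfrsf21 (0.34 ± 0.11, 0.046) rose, 2 of 12. In the IP, Tnfrsf10b was at 133 to 271 TPM at day 11, beside an olfactory receptor mean of 0.565 to 1.40 TPM. At day 27 it was at 223 to 432 TPM, beside 1.17 to 2.05 TPM. It was highest, at 1195 TPM, in the running input library c of day 18, where that mean was 9.78 TPM. The part of this background in the rise of Tnfrsf10b was not tested. Trp53inp1 (-0.48 ± 0.15, 0.042) and Bag1, a partner of BCL2 (-0.59 ± 0.13, 0.0075), fell. For running, 0 genes of any of the 6 lists passed in the IP or in the input by limma. The lowest unadjusted p of its list in the IP belonged to Bok (0.49 ± 0.14, adjusted p = 0.20), Slc25a5 (0.36 ± 0.11, 0.21) and Cdkn1a (0.57 ± 0.21, 0.25).

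Likeness between patterns is given as a description, as Pearson's r of log2(TPM + 1). Over 24 libraries, which share the split into IP and input, Bcl2 was most like Epb4.1l5 (0.95), Cdca7 (0.93) and St8sia2 (0.93). Mcl1 was most like Fam193a (0.97), Soga3 (0.97) and Rbm6 (0.96), Bcl2l1 most like Pfkp (0.90), Amph (0.89) and Klc1 (0.87), and Bbc3 most like Capn10, Acan and Plekhh3 (0.91 each). For Bcl2l11 the nearest were Klf11, Bcl2 and Socs2 (0.86 each), so that a member stood among the 3 nearest genes of another. Apaf1 was nearest to Irf2bp2, Adcyap1r1 (0.90 each) and Rps6ka5 (0.88), and Casp9 to Nr2f6 (0.89), Pgs1 (0.84) and Gtpbp2 (0.83). Bak1 was nearest to the histone genes Hist1h2bf and Hist1h2bb (0.85 and 0.84) and to Adpgk (0.84), and Bax, with the lowest values, to Csnk2a2 (0.76), Dnpep (0.76) and Blvrb (0.75). Among the members over the 12 IP libraries, which share days and scaling, r was 0.85 for Mcl1 and Casp9, 0.84 for Bcl2 and Bcl2l11, 0.82 for Casp9 and Apaf1, 0.72 for Bcl2l1 and Bbc3, and -0.60 for Bax and Bak1. The running IP library a of day 11, with the excess of Rpph1, held the lowest IP value of Mcl1 (57.0 TPM), Casp9 (6.20 TPM) and Apaf1 (8.28 TPM). The sedentary IP library a of day 11 was next lowest for Mcl1 (62.6 TPM) and Casp9 (9.28 TPM). The part of these libraries in the r values was not tested.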

How the data were processed

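RNA of dentate gyrus from 24 libraries was analysed, 12 of ribosome precipitate and 12 of input, in 12 groups of 2. The authors deposited TPM, made with RSEM on the mm10 build per the submitters' processing notes, from libraries of the SMARTer Stranded Total RNA-Seq Kit v2, per the labels' protocols. For the RSEM version, the annotation and the use of strand, the entry is: not given in the sources used here. Each column sums to 1000000 or 1000001, so TPM hide the depth, and precision rests on the spread between libraries. Among the deposited TPM, 27 gene names had been turned into dates and 2 occurred more than once, none of them a member.

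Linear models were fitted with limma 3.58.1 (R 4.3.3; moderation with a mean-variance trend and robust to outlying genes) to log2(TPM + 1), keeping genes whose TPM averaged 1 or more, in all 24 libraries (19507 genes), the 12 IP libraries (17282) and the 12 input libraries (20462). Differences on this scale understate the change of low genes. Adjusted p-values are by Benjamini-Hochberg over all genes of a contrast, two-sided except the F tests, with a threshold of 0.05. Contrasts were IP against input, running against sedentary, day against day, and differences between days or fractions. The fits were also run on simulated data with independent normal noise. Those data hold no difference between libraries in background or scaling, and no conclusion is drawn from them here. The labels do not say whether the 2 libraries of a group are from different animals. The p-values then measure only how far these samples spread, which may be technical spread.

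The members, the 6 further lists, the 14 marker lists and the motifs were chosen with earlier results of these data known. Named genes were all 9 members, up to 4 genes of a further list with the lowest unadjusted p, and for each member the 3 genes with a proper symbol and a mean of at least 5 TPM that correlated best with it. In the paragraphs on days and on running, fewer than 4 are named per list. Of these, 1 gene that the rule names is not reported here. Alternatives were a pseudocount of 0.1, no filter, median-of-ratios scaling, no trend, a block by library letter, the fit of all 24 libraries, and fits without day 18 or without each library. A fit without both IP libraries a of day 11 was added after seeing the data. Coordinates are from GENCODE M21 (GRCm38) and sequences from RefSeq (GRCm38.p6).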

Additional observations from a re-analysis of the deposited data

Results flagged for a closer look

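The ratio of IP to input differed between days 11, 18 and 27 by the test of the difference itself (limma F test, 4 against 4 libraries a day) for 3 members, beside 37.4% of all genes: Bcl2l1 (adjusted p = 0.005784), Mcl1 (adjusted p = 0.0194) and Bcl2 (adjusted p = 0.03703). In none of the 54 sets of 4 libraries (9 members, 2 fractions, 3 days) did a library lie far from the other 3 by Dixon's test, where chance alone gives about 1 in 20.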

How the results depend on the processing

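Of 27 calls of members, all 27 stayed at a pseudocount of 0.1, 26 without the filter and 23 without trend and robust. With median-of-ratios scaling 11 were lost and Mcl1 in IP against input at day 27 turned to -0.00099. That scaling left 5 members in IP against input (8 as reported), 2 at day 11 and 2 at day 27 (4 each), 0 for day 18 against day 11 in the IP (1), 2 for day 27 against day 11 (1), and 1 for day 27 against day 18 in the input (2). Day 18 against day 11 in the IP also gave 0 without the filter, without trend and robust, and without both IP libraries a of day 11. Day 27 against day 11 gave 0 without trend and robust and without both libraries a, and day 27 against day 18 in the input 1 without trend and robust. Leaving out 1 library gave 8 to 9 members in IP against input, 3 to 4 at day 18, 3 to 5 at day 27, 2 to 6 at day 11, 1 to 4 for the difference between days, 0 to 2 and 0 to 1 in the IP for day 18 and day 27 against day 11, and in the input 1 to 3 for day 18 against day 11 and 0 to 2 for day 27 against day 18. Running gave 0 members in every fit tried. Same-lettered running and sedentary libraries deviated together with r of 0.05 to 0.27, and same-lettered IP and input libraries with -0.28 to -0.01, so the letters were not taken as pairs. With the replicate block 17 of 20 calls stayed, Bcl2l1 in IP against input had an adjusted p of 0.059, and 1 member passed for the difference between days. Letters lie within days, so no block could be fitted between days. The shares of all genes that passed in the alternative fits are not given here, so the counts of members in them are no result about the members. The cause of these changes was not tested. Depth is unknown, and with 2 libraries a group small running differences lie within the intervals given.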
